A study of Mus musculus with 5 samples.

Results

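The 10 genes described here encode the core subunits of the mouse pyruvate dehydrogenase complex and the enzymes that switch it off and on: the kinases Pdk1, Pdk2, Pdk3 and Pdk4, the phosphatases Pdp1 and Pdp2, and the subunits Pdha1, Pdhb, Pdhx and Dlat. They were chosen by gene name from the 17015 genes of the deposited table, and all 10 were found there. RNA-seq had been carried out on tibialis anterior (TA), a fast-twitch muscle of the lower leg, from male mice at 8 weeks of age, in 3 WT control libraries and 2 libraries labelled skmNrip1-/-. In skmNrip1-/- mice a Cre recombinase driven by the myogenin promoter, which is active in developing skeletal muscle fibers, recombines a floxed Nrip1 allele around exon 4, the exon that carries the whole coding sequence of the corepressor RIP140, while the controls were littermates without Cre and the floxed line was C57BL/6J. Values are FPKM, sequenced fragments divided by transcript length and by a library scale, which allows levels of different genes to be set side by side per length.

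Pyruvate dehydrogenase sits in the mitochondrial matrix and turns pyruvate, the end product of glycolysis, into acetyl-CoA for the tricarboxylic acid cycle. Its E1 component is a tetramer of the alpha and beta subunits encoded by Pdha1 and Pdhb, its E2 core is dihydrolipoamide acetyltransferase (Dlat), and the E3-binding protein Pdhx tethers the dihydrolipoamide dehydrogenase. The Pdk kinases phosphorylate the alpha subunit and shut the enzyme down, and the Pdp phosphatases remove that phosphate. In skeletal muscle Pdk4 is known as the isoform that rises with fasting and fat oxidation, and Pdp1 as the calcium-stimulated phosphatase of contracting muscle. RNA levels say nothing on the phosphorylation of the enzyme, which was not measured here.

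The gene that the Cre targets did not separate the groups in the direction of a loss. For Nrip1 the WT control libraries, replicates 1 to 3 in that order here and below, gave 4.64, 7.69 and 6.55 FPKM, and the level was 25.3 and 22.5 FPKM in the libraries labelled skmNrip1-/- (log2 fold change 1.94, SE 0.21, limma adjusted p = 0.0261). Without 1 library each, its log2 fold change ranged from 1.74 to 2.09, with an adjusted p over 0.05 without WT control replicate 3 (0.114), skmNrip1-/- replicate 1 (0.189) or replicate 2 (0.143). The paper gives Nrip1 expression and a RIP140 western blot of this mouse line, in gastrocnemius and heart rather than in TA. With a single gene-level value here, exon 4 could not be looked at apart, so Nrip1 does not check the labels of these libraries. Every direction below therefore rests on the labels, and each library is named by its group and replicate number.

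The libraries carried transcripts of skeletal muscle fibers in abundance. The FPKM of 6 fiber genes (Acta1, Ckm, Myh4, Myh1, Mylpf and Tnnt3) summed to between 65293 and 87775 in WT control and to 60042 and 62227 in the libraries labelled skmNrip1-/-. Markers of other cells were low beside these. Summed FPKM of 4 blood genes lay between 303 and 463 in WT control and at 602 and 497 in the other group, with 3 of the 4 genes higher without overlap in FPKM, beside 15.8% of all tested genes, and 0 of the 4 in TPM. Adipocyte markers summed to between 7.41 and 13.9 and to 11.9 in both libraries of the other group, endothelial markers to between 67.1 and 76.6 and to 63.2 and 71.3, macrophage markers to between 2.54 and 5.92 and to 3.98 and 4.07, fibroblast markers to between 109 and 158 and to 136 and 181, and Schwann cell markers to between 11.9 and 18.1 and to 13.9 and 9.53. Of 4 heart markers, the 2 in the table summed to between 1.84 and 3.64 in WT control and to 1.81 and 1.08 in the other libraries. Slow or oxidative fiber markers stood at 1406 in WT control replicate 3 and between 324 and 518 in the other 4 libraries, a sum that Myh2 carried in replicate 3 with 1102 FPKM. Of the same list, and named after their values were seen, Myl2 stood at 2.03, 1.85 and 9.68 FPKM in WT control and at 42.1 and 33.6 in the other group (log2 fold change 3.46, SE 0.67, limma adjusted p = 0.127). Myl3 lay the other way, at 89.6, 124 and 285 against 54.1 and 71.3 FPKM (-1.24, SE 0.45, adjusted p = 0.359), and both had no overlap. The part of these differences in the results below was not tested, and in bulk muscle fewer cells of a type cannot be told apart from less RNA per cell. The library scale of the FPKM, read from the step size of the lowest values, ran from 0.809 to 1.103 of that of WT control replicate 1. It does not give the total sequencing depth.

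The levels of the 10 genes differed widely, as the plot of FPKM by library sets out. In WT control the mean levels were 405 ± 41.0 FPKM for Pdhb, 317 ± 21.3 for Pdha1, 243 ± 11.7 for Pdk2, 173 ± 89.1 for Pdk4, 96.9 ± 9.41 for Dlat, 45.1 ± 5.84 for Pdp1, 44.1 ± 4.21 for Pdhx, 15.9 ± 2.11 for Pdk1, 1.099 ± 0.336 for Pdp2 and 0.406 ± 0.0955 for Pdk3 (SD, n = 3). Both E1 subunits thus stood above every other member, with Pdhb above Pdha1 and Pdha1 above Pdk2 in WT control. Neighbours in this order that did not differ beyond their spread were Pdk2 and Pdk4, Pdk4 and Dlat, and Pdp1 and Pdhx. Within the kinases Pdk2 and Pdk4 carried nearly all of the FPKM, and within the phosphatases Pdp1 did.

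**Figure D1:**
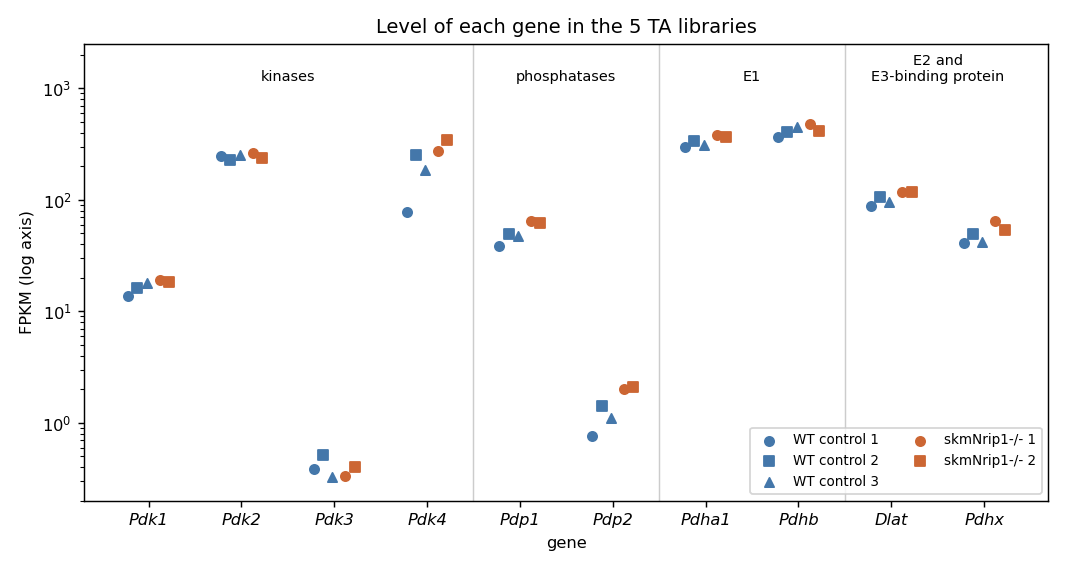
FPKM on a log axis for each of the 10 genes, grouped by role, with 1 point per library (blue, WT control replicates 1 to 3; orange, libraries labelled skmNrip1-/- replicates 1 and 2). Pdk4 spreads from 78.2 to 255 FPKM within WT control, while Pdk2 stays between 229.9 and 263 in all 5 libraries.

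No member was called different between the groups. A call was a limma adjusted p, on log2(FPKM + 0.1), of at most 0.05 with a change of 1.2-fold or more. By this rule 0 of the 9 members that passed a mean of 0.5 FPKM were called, against 0.453% of all 12148 genes tested (45 higher and 10 lower). At an unadjusted p of 0.05 or less, 4 of the 9 were higher in the libraries labelled skmNrip1-/- (Pdp1, Pdp2, Pdhx and Dlat) and none was lower, where 6.57% of all genes tested were higher and 5.33% lower. In 7 of the 10 genes (Pdk1, Pdk4, Pdp1, Pdp2, Pdha1, Pdhx and Dlat) both of those libraries lay above every WT control library, a pattern that 15.8% of all tested genes showed, while 14.4% showed its reverse and no member did. In FPKM all 9 tested members had a positive log2 fold change, against 4 of 9 when rescaled to TPM, and their median in FPKM was 0.29 beside 0.00 over all tested genes.

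These counts depend on the scale. The deposited FPKM carry a scaling that sets the median gene equal between libraries, and their sums were 1144714, 1031290 and 969144 in WT control and 1288038 and 1286254 in the libraries labelled skmNrip1-/-. Rescaled to TPM, where each library sums to the same total, the median difference over the genes tested became -0.29 (log2). On that scale only Pdp2 lay above every WT control library among the 10 genes, where 2.74% of the genes tested did, and Pdk2 and Pdk3 lay below every one, as did 5961 of the 11913 genes tested on that scale. None of the 9 reached an unadjusted p of 0.05 with a higher value, where 1.3% of the genes did, and Pdk1, Pdk2, Pdha1, Pdhb and Dlat changed sign to -0.05, -0.25, -0.05, -0.15 and -0.01. Rescaling divides each library by 1 factor, so measured from the median gene the differences had to be nearly equal on both scales. They ran from 0.04 for Pdk2 to 0.98 for Pdk4 in TPM, and from 0.05 to 0.99 in FPKM. Which scale is right for total RNA per fiber cannot be told from the table, so the values below are FPKM differences relative to the median gene.

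**Figure D2:**
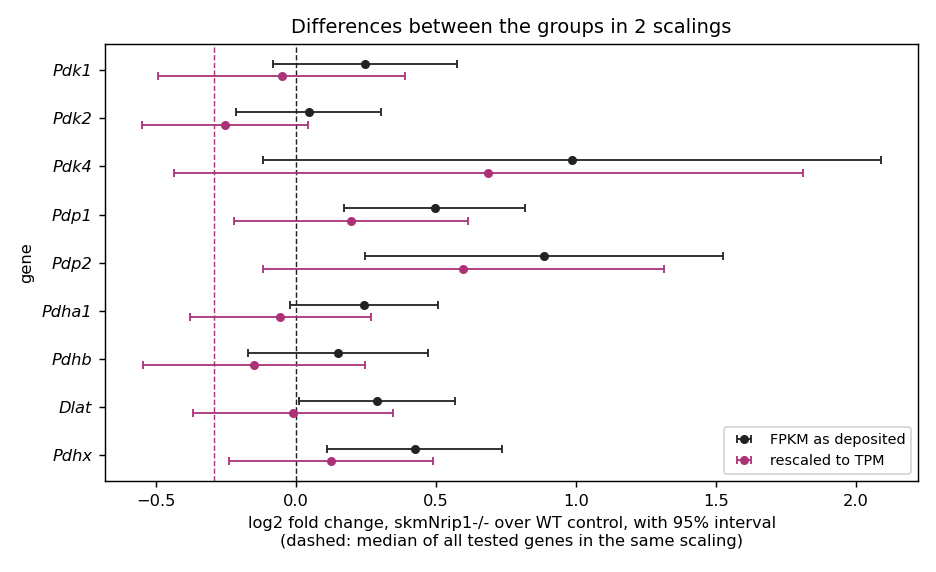
Log2 fold change of the 9 tested members (libraries labelled skmNrip1-/- over WT control) with 95% intervals, on the deposited FPKM (black) and rescaled to TPM (purple), and the median of all tested genes on each scale as a dashed line. Intervals of Pdp1, Pdp2, Pdhx and Dlat lie above 0 in FPKM, and all 9 intervals include 0 in TPM, where Pdk1, Pdk2, Pdha1, Pdhb and Dlat change sign.

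Pdk4, the kinase induced by fasting in muscle, varied most. It lies at chr6:5483351-5496309 on the minus strand (GRCm38, GENCODE M21; gene ENSMUSG00000019577). It stood at 78.2, 255 and 185 FPKM in WT control, and at 272 and 345 FPKM in the libraries labelled skmNrip1-/-. The groups did not overlap, but the lowest of the WT control libraries was well apart from the other two, and the highest of them was close to the lower of the other group. The spread within WT control was 3.26-fold, and its SD on the log2 scale, 0.88, was larger than that of 98.4% of the genes tested. The means were 173 ± 89.1 FPKM (SD, n = 3) and 309 ± 51.7 FPKM (SD, n = 2), and the log2 fold change was 0.99 (SE 0.46, 95% interval -0.12 to 2.09), with a limma adjusted p of 0.474. Leaving out WT control replicate 1 lowered it to 0.50 (adjusted p = 0.395), and leaving out WT control replicate 2 raised it to 1.35 (adjusted p = 0.228).

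Pdk2, the kinase with the broadest tissue distribution, was the steadiest member. It lies at chr11:95026258-95041354 on the minus strand (ENSMUSG00000038967). Its FPKM was 249, 229.9 and 251 in WT control and 263 and 239 in the libraries labelled skmNrip1-/-, so the groups overlapped. The log2 fold change was 0.05 (SE 0.11, 95% interval -0.21 to 0.31, limma adjusted p = 0.911), which leaves room for a fold between 0.863 and 1.24. It was -0.02 without skmNrip1-/- replicate 1. Its SD within WT control on the log2 scale was larger than that of 11.8% of the genes tested.

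As Pdk4 and Pdk2 are the members that varied most and least, the bases before their outermost RefSeq start (GRCm38.p6, minus strand, written 5′ to 3′ in the direction of the gene) are shown, for Pdk4 chr6:5496310-5496528 without the 31 bases that GENCODE counts as part of the gene, and for Pdk2 chr11:95041372-95041621. Capitals mark each match to the CCAAT box, the letters CCAAT on either strand, which appear here as their reverse complement.
Pdk4: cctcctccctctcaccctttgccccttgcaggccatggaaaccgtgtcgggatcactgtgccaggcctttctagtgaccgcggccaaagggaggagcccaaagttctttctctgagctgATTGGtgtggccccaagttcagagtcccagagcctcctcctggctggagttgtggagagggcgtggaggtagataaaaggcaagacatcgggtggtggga
Pdk2: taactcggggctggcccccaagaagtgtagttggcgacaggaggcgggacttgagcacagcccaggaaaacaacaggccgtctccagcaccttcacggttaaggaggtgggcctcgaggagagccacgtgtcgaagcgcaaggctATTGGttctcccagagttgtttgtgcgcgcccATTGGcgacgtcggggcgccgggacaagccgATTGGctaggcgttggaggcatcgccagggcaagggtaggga
The Pdk4 stretch held 1 match, 131 bases before the start, and the Pdk2 stretch held 3, at 105, 73 and 42 bases before it. CCAAT occurred in 33.8% of the 32851 RefSeq promoter windows of 250 bases before the start. In the 11 such windows of 9 members (Pdp1 had none in the table), CCAAT was found in 5, of Pdk2, Pdk3, Pdk4, Pdp2 and Pdhb. The GC box GGGCGG was found in 6 (Pdk1, Pdk3, Pdp2, Pdhb, Pdhx and Dlat), beside 32.7% of all windows. The nuclear receptor half-site AGGTCA (14% of all windows), its extended form for estrogen-related receptors TNAAGGTCA (1.14%), the FoxO motif GTAAACA (3.17%), the NRF-1 core GCGCATGC (2.26%) and the TATA box TATAAA (12.4%) were found in none of the 11. The extended form contains the half-site, and all motifs were searched on both strands. A missing match says only that these letters are not in this window.

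The remaining kinases were minor at the RNA level. Pdk1, a target of hypoxia signalling in many cells, lies at chr2:71873224-71903858 on the plus strand (ENSMUSG00000006494) and stood at 13.7, 16.3 and 17.8 FPKM in WT control and at 19.2 and 18.4 in the libraries labelled skmNrip1-/-. The difference on the log2 scale was 0.25 (SE 0.14, limma adjusted p = 0.555), and the gap between the groups was smaller than the spread within WT control. Pdk3 lies at chrX:93764607-93832201 on the minus strand (ENSMUSG00000035232). Its FPKM was 0.382, 0.512 and 0.325 in WT control and 0.332 and 0.406 in the other libraries, which overlapped. It did not pass the minimum of 0.5 FPKM and was not tested. By the steps between low values its FPKM stand for about 23.9 to 50.2 fragments per library, so a modest difference was not detectable at this depth.

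The make-up of the kinase pool turned on Pdk4, since Pdk2 stayed level. Summed FPKM of the 4 kinases was 341, 502 and 454 in WT control and 555 and 603 in the libraries labelled skmNrip1-/-, with no overlap. Pdk1, Pdk2 and Pdk3 alone summed to 263, 247 and 269, and to 283 and 258. In TPM the kinase sums of the groups did overlap. On that scale Pdk4 stood at 68.3, 247 and 191 in WT control and at 211 and 268, and Pdk2 lay below every WT control library. The share of Pdk4 in the kinase FPKM was 22.9%, 50.8% and 40.7% in WT control and 49.0% and 57.2% in the other libraries, an overlap that the plot of kinase FPKM shows. Pdk2 accounted for 73.0%, 45.8% and 55.3%, and for 47.4% and 39.7%. The ratio of Pdk4 to Pdk2 was 0.314, 1.11 and 0.737 in WT control and 1.03 and 1.442 in the other group. Such ratios within a library do not depend on the scaling between libraries. WT control replicate 1 had the lowest Pdk4 share by a wide margin, and without it the difference in mean share was 7.35 in place of 14.97 percentage points.

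**Figure D3:**
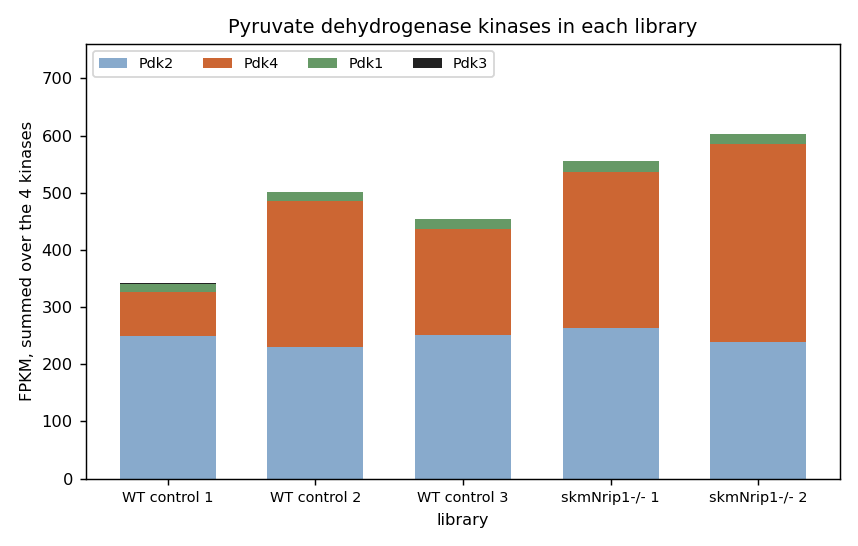
Stacked FPKM of the 4 kinases in each library, with the bars starting at 0. The Pdk2 segment is of similar height in all 5 libraries, and the height of the bars, from 341 to 603 FPKM, follows the Pdk4 segment.

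Both phosphatases were higher in the libraries labelled skmNrip1-/- at an unadjusted p of 0.05 or less in FPKM, neither was at that level in TPM, and neither was called. Pdp1, the calcium-sensitive isoform, lies at chr4:11958184-11966452 on the minus strand (ENSMUSG00000049225). It stood at 38.5, 49.6 and 47.1 FPKM in WT control and at 65.1 and 61.5 FPKM in the other libraries. The groups were well separated, with means of 45.1 ± 5.84 (SD, n = 3) and 63.3 ± 2.54 FPKM (SD, n = 2). The log2 fold change was 0.50 (SE 0.14, 95% interval 0.17 to 0.82), and the limma adjusted p was 0.247. Across leaving out each library it stayed between 0.39 and 0.57, and rescaled to TPM it was 0.20 with overlapping groups.

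Pdp2, the phosphatase known as the insulin-sensitive isoform, lies at chr8:104591451-104599026 on the plus strand (ENSMUSG00000048371) and was far less abundant. Its FPKM was 0.755, 1.43 and 1.12 in WT control and 2.01 and 2.11 in the libraries labelled skmNrip1-/-, or about 196 to 528 fragments per library. The groups did not overlap on either scale. The log2 fold change was 0.89 (SE 0.27, 95% interval 0.25 to 1.53) with a limma adjusted p of 0.282, and 0.60 in TPM (adjusted p = 0.217). A pseudocount of 1 in place of 0.1 lowered it to 0.56. Pdp1 exceeded Pdp2 50.9, 34.8 and 42.2 times in WT control and 32.4 and 29.1 times in the other libraries.

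The balance of kinases and phosphatases overlapped between the groups. The ratio of summed kinase to summed phosphatase FPKM was 8.70, 9.83 and 9.42 in WT control and 8.27 and 9.49 in the libraries labelled skmNrip1-/-. The means of 9.32 ± 0.573 (SD, n = 3) and 8.88 ± 0.859 (SD, n = 2) differed by less than the spread of either group, and without skmNrip1-/- replicate 1 the difference turned from -0.435 to 0.172. Against the substrate the phosphatases stood higher: summed phosphatase FPKM over the mean of Pdha1 and Pdhb was 0.119, 0.137 and 0.127 in WT control and 0.156 and 0.162 in the other group, without overlap. Kinases over the same E1 mean were 1.03, 1.35 and 1.197, and 1.29 and 1.54, which overlapped. For Pdp1 over Pdha1, its substrate, the ratios were 0.129, 0.146 and 0.151, and 0.170 and 0.167, again apart. The ratios of phosphatases to the E1 mean and of Pdp1 to Pdha1 were not among those planned and were added to them, so they are a description only.

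Of the E1 genes, Pdha1 was apart between the groups in FPKM and Pdhb was not, and neither was called. Pdha1, the phosphorylated alpha subunit, lies at chrX:160122209-160138413 on the minus strand (ENSMUSG00000031299). It stood at 298, 339.6 and 313 FPKM in WT control and at 382 and 368 in the libraries labelled skmNrip1-/-. No library overlapped, and the log2 fold change was 0.24 (SE 0.11, 95% interval -0.02 to 0.51, limma adjusted p = 0.461). Its exons overlap those of Map3k15 on the opposite strand, and whether the counting used strand is not given in the sources used here. Map3k15 itself was at 0.369 to 0.621 FPKM. Pdhb, the beta subunit, lies at chr14:8165996-8173025 on the minus strand (ENSMUSG00000021748) and stood at 364, 404 and 446 FPKM in WT control and at 479 and 419 in the other group, which overlapped. Its log2 fold change was 0.15 (SE 0.13, limma adjusted p = 0.737). The ratio of Pdha1 to Pdhb stayed between 0.701 and 0.878 in all 5 libraries and overlapped between the groups.

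The core and tether genes were modestly higher in FPKM in the libraries labelled skmNrip1-/-, while in TPM Dlat was at -0.01 and Pdhx at 0.13. Dlat, the acetyltransferase, lies at chr9:50634633-50659780 on the minus strand (ENSMUSG00000000168). Its FPKM was 87.8, 107 and 96.3 in WT control and 117 and 119 in the libraries labelled skmNrip1-/-, with no overlap. The log2 fold change was 0.29 (SE 0.12, 95% interval 0.01 to 0.57, limma adjusted p = 0.398). Pdhx, which anchors the E3 enzyme to the core, lies at chr2:103021075-103073513 on the minus strand (ENSMUSG00000010914). It stood at 41.3, 49.0 and 42.2 FPKM in WT control and at 64.6 and 54.1 in the other group, again apart. Its log2 fold change was 0.43 (SE 0.13, 95% interval 0.11 to 0.74, limma adjusted p = 0.290). The ratio of Dlat to Pdhx was 2.13, 2.18 and 2.28, and 1.82 and 2.19, which overlapped. Pdhx over Pdhb, a ratio also added to those planned, was 0.113, 0.121 and 0.0945, and 0.135 and 0.129, which did not overlap.

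WT control replicate 1 was the lowest of the 5 libraries in 8 members, the exceptions being Pdk2 and Pdk3. Leaving it out lowered the log2 fold changes of the members other than Pdk2 without changing a sign. The count of members higher at an unadjusted p of 0.05 or less was 1 without skmNrip1-/- replicate 1, where 3.39% of all genes tested were, 2 without skmNrip1-/- replicate 2 (3.79%) and 6 without WT control replicate 2 (8.03%). The number of members called was 0 in every such fit.

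The genes whose pattern over the 5 libraries was most like that of Pdk4 were sought among all tested genes by the root mean square distance between profiles of log2(FPKM + 0.1), each centred on its own mean. Nearest was Lpin1 (distance 0.173), a phosphatidate phosphatase and transcriptional coactivator, at 6.32, 16.2 and 16.0 FPKM in WT control and 18.1 and 23.9 in the libraries labelled skmNrip1-/-. It was followed by Slc25a22 (0.207), a mitochondrial glutamate carrier, at 7.65, 17.1 and 13.6, and 20.0 and 23.0 FPKM. Next came Gm13301 (0.225), at 0.257, 0.850 and 0.963, and 1.29 and 1.81 FPKM, P2ry1 (0.232), a receptor for ADP, at 3.12, 6.35 and 5.52, and 9.34 and 10.7 FPKM, and Layn (0.255), a hyaluronan receptor, at 0.577, 1.29 and 1.443, and 1.58 and 2.41 FPKM. The median distance over all tested genes was 0.766. All 5 shared with Pdk4 the low value in WT control replicate 1 and the highest value in skmNrip1-/- replicate 2, as the plot of centred profiles shows. They were picked by their nearness over these same 5 values, so this likeness follows from the choice.

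**Figure D4:**
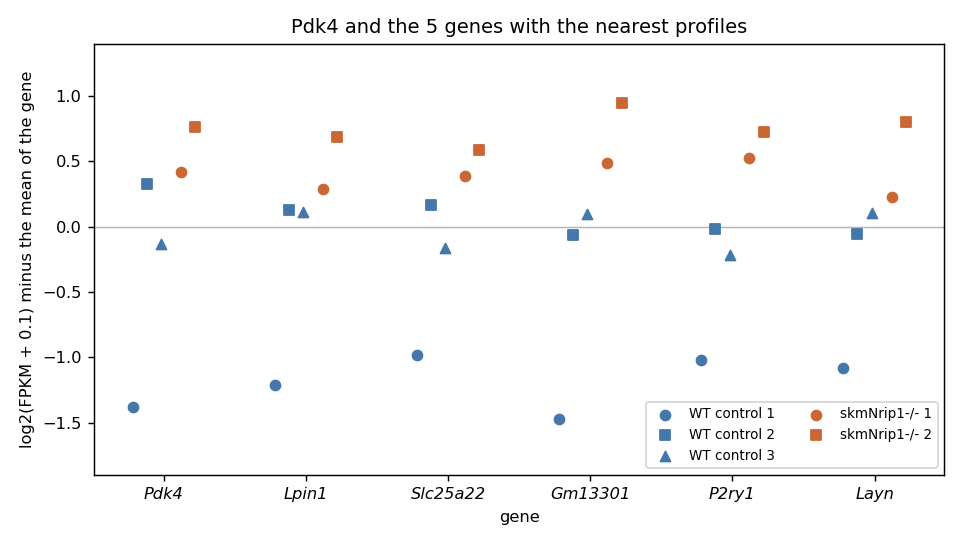
Log2(FPKM + 0.1) of Pdk4 and its 5 nearest genes in each library, minus the mean of the gene (blue, WT control; orange, libraries labelled skmNrip1-/-). In all 6 genes WT control replicate 1 is far below the other 4 libraries and skmNrip1-/- replicate 2 is highest, a likeness that follows from choosing the 5 by nearness to Pdk4 over these values.

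The genes around the complex were grouped by role in lists. In FPKM each list is read beside the median of 0.00 and the shares of all tested genes given above. For TPM values the reference is the median of -0.29 over the 11913 genes tested on that scale. Of those genes, 155 were higher and 3512 lower at an unadjusted p of 0.05 or less, and 30 were called higher and 63 lower. Of 8 genes for the E3 enzyme, the phosphatase regulator and lipoic acid attachment, 0 were called, 4 were higher at an unadjusted p of 0.05 or less and none lower, with a median log2 fold change of 0.30. In TPM none was higher and 1 was lower at that level, with a median of 0.00. Dld, the E3 dihydrolipoamide dehydrogenase shared by the related complexes, was the highest at 142, 178 and 151 FPKM in WT control and 219 and 215 in the libraries labelled skmNrip1-/- (log2 fold change 0.48, SE 0.13, limma adjusted p = 0.244). Lowest was Lipt2, an octanoyltransferase of lipoate synthesis, at -0.26 (SE 0.21, adjusted p = 0.704). In the 9 genes of the sister 2-oxoacid dehydrogenases, which act on 2-oxoglutarate, branched-chain acids and 2-oxoadipate, 0 were called, 4 were higher and none lower at the unadjusted level, with a median of 0.39. In TPM none was higher and 1 was lower, with a median of 0.09. Their extremes were Ppm1k, the branched-chain dehydrogenase phosphatase, at 0.56 (SE 0.39), and Dhtkd1, the E1 for 2-oxoadipate, at -0.19 (SE 0.13), with adjusted p of 0.648 and 0.659. Ppm1k stood at 4.07 and 8.46 FPKM in the libraries labelled skmNrip1-/-, and its difference was 1.08 without replicate 1 of them and 0.041 without replicate 2, so its place in the list rests on 1 library.

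Pyruvate supply and its other fates held genes on both sides. Among 10 genes, 1 was called higher and none lower, 2 were higher and 5 lower at an unadjusted p of 0.05 or less, and the median was -0.07 (-0.37 in TPM). In TPM the calls turned to 0 higher and 2 lower, Gpt2 and Pkm, the muscle pyruvate kinase (-0.75, adjusted p = 0.0499, against -0.45 and 0.309 in FPKM), with 1 higher and 5 lower at the unadjusted level. Ldhb, the lactate dehydrogenase subunit of oxidative tissues, rose from 89.7, 106 and 86.2 FPKM in WT control to 214 and 184 in the libraries labelled skmNrip1-/- (log2 fold change 1.09, SE 0.13, limma adjusted p = 0.0376). Rescaled to TPM its difference was 0.79 with an adjusted p of 0.0532, so the call was lost there. The call was also lost without WT control replicate 1 (adjusted p = 0.0813) or 3 (0.168), or without skmNrip1-/- replicate 1 (0.261) or 2 (0.202), with a log2 fold change between 0.98 and 1.196 in those fits. Gpt2 is the mitochondrial alanine aminotransferase that interconverts pyruvate and alanine. It stood at 108, 93.5 and 101 FPKM in WT control and at 60.8 and 57.1 in the other group. The log2 fold change of Gpt2 was -0.77 (SE 0.11, limma adjusted p = 0.0513). It was called lower in TPM at -1.07 (adjusted p = 0.0150), with a pseudocount of 1 (0.0468) and with a minimum of 1 FPKM (0.0466). It was not called without WT control replicate 1 (0.0813), 2 (0.0512) or 3 (0.239). Nor was it called with the replicate number as a block (0.235) or without the variance trend (0.135). Without 1 library each, its log2 fold change stayed between -0.82 and -0.72.

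The cofactor and acetyl-CoA genes gave no call. Of 4 genes for thiamine pyrophosphate, the E1 cofactor, 3 were tested and the median was 0.16 (-0.10 in TPM). The highest was Slc19a2, a thiamine transporter, at 0.39 (SE 0.14, limma adjusted p = 0.351). In the 6 genes of acetyl-CoA use and buffering, 3 were higher and none lower at an unadjusted p of 0.05 or less, with a median of 0.28. In TPM 1 was higher and 2 were lower, with a median of -0.02. They ran from Slc25a20, the carnitine-acylcarnitine carrier, at 0.88 (SE 0.14, adjusted p = 0.0793) to Slc25a1, the citrate carrier, at -0.35 (SE 0.18, adjusted p = 0.521). For Slc25a20 the adjusted p was 0.0354 without WT control replicate 2, 0.132 without replicate 1 and 0.311 without replicate 3.

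Known regulators of Pdk4 transcription and PPAR-responsive lipid genes were the last lists. Among 14 regulators none was called, 2 were higher and 1 lower at an unadjusted p of 0.05 or less, and the median was 0.11. In TPM none was higher and 2 were lower, with a median of -0.19. The extremes were Lpin1, at 0.81 (SE 0.41, adjusted p = 0.509) and 0.37 without WT control replicate 1, and Rxra, the shared partner of PPAR receptors, at -0.34 (SE 0.10, adjusted p = 0.293). Of 17 tested lipid genes, 2 were called higher and none lower, 12 were higher and none lower at the unadjusted level, and the median was 0.66. In TPM 1 was called higher, 5 were higher and 1 lower at that level, and the median was 0.36. Fabp3, a fatty acid binding protein of oxidative muscle, rose from 483, 533 and 461 to 1889.6 and 1841 FPKM (log2 fold change 1.92, SE 0.12, limma adjusted p = 0.00293), and its adjusted p was 0.0506 without skmNrip1-/- replicate 1 and 0.0531 without replicate 2. Hadhb, the beta subunit of the trifunctional protein of fatty acid oxidation, rose from 173, 203 and 175 to 366 and 344 FPKM (0.95, SE 0.12, adjusted p = 0.0378), and its adjusted p was 0.0661 in TPM, 0.0726 and 0.181 without WT control replicates 1 and 3, and 0.306 and 0.291 without skmNrip1-/- replicates 1 and 2. Ucp2, an uncoupling protein family member, was lowest at -0.29 (SE 0.27, adjusted p = 0.750) and turned to 0.10 without skmNrip1-/- replicate 2. Earlier results of these data were known when these lists were written, so their counts are a description.

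**Figure D5:**
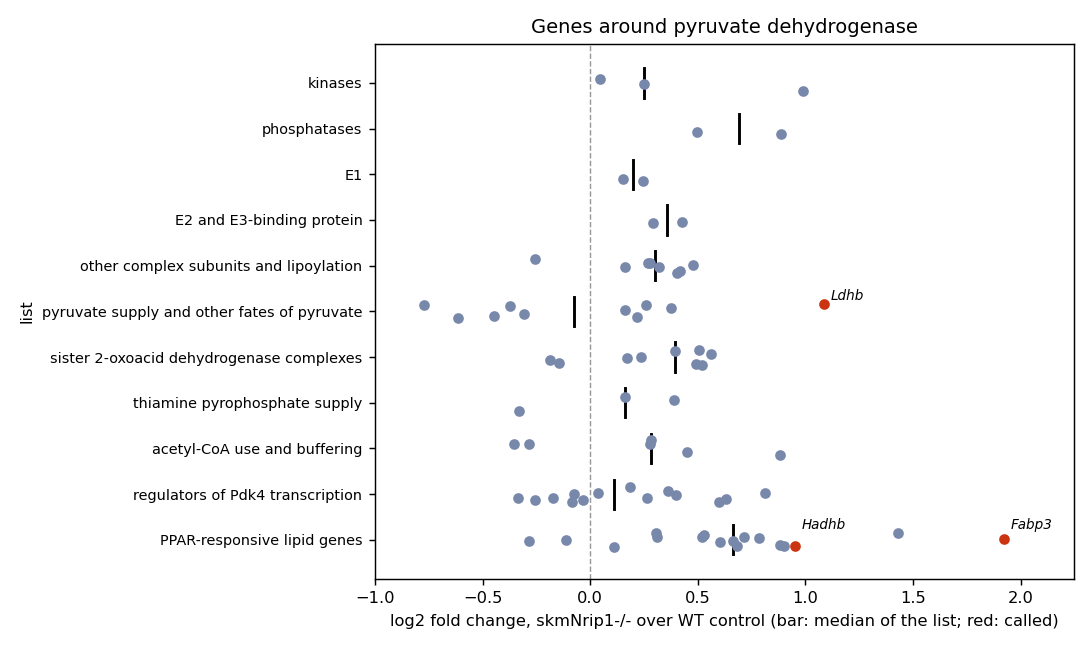
Log2 fold change (libraries labelled skmNrip1-/- over WT control, deposited FPKM) of each tested gene by list, with the list median as a bar, the median of all tested genes dashed and called genes in red. The called genes are Ldhb, Fabp3 and Hadhb, none of them among the 9 tested members, and in TPM every point lies about 0.29 further left.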

How the data were processed

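Total RNA of TA muscle was sequenced in 5 libraries, grouped here by their labels. The authors quantified reads with Salmon on mm10 (version 1.10.2, per the submitters' processing notes) and deposited FPKM per gene. How the FPKM were computed is not given in the sources used here. The deposited table also holds the authors' log2 fold changes and adjusted p-values from DESeq2 1.44.0, which were not used. FPKM are not counts, so total depth is unknown and no counting interval is given. The approximate fragment numbers rest on the steps between low FPKM of genes with 1 transcript, of which 65.9% to 81.3% fell within 0.1 fragment of a whole number.

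The groups were compared by limma 3.58.1 (R 4.3.3; lmFit, eBayes with trend) on log2(FPKM + 0.1), in 1 fit of the 5 libraries without covariates. P-values were adjusted by Benjamini-Hochberg across the 12148 genes whose mean reached 0.5 FPKM. Fold changes are on the log2(FPKM + 0.1) scale, which understates those of low genes. P-values measure only the spread between these libraries. Calls needed an adjusted p of at most 0.05 with a 1.2-fold change. The fit was tested on simulated data first. There, 55 of 96 changes of 1 on the log2 scale and 93 of 104 changes of 2 were recovered, and 7 of 11948 unchanged genes were called. Smaller changes were not simulated, so a member without a call may still differ. Python 3.11.15 (pandas 2.3.3, numpy 2.4.6, matplotlib 3.10.9) served for tables and figures.

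Named genes are the 10 members, Nrip1, the called, highest and lowest genes of each list, and the 5 genes nearest to Pdk4. A gene that meets this rule is not reported here. Map3k15 was added for its overlap with Pdha1, and Pkm, Myh2, Myl2 and Myl3 after their values were seen. Members and lists were chosen with earlier results of these data known. Alternatives were other pseudocounts (1 and 0.01), minima, scalings, variance models and call thresholds, a replicate block, and leaving out each library.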

Additional observations from a re-analysis of the deposited data

How the results depend on the processing

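The log2 fold changes of the 9 tested members were recomputed under 14 alternatives each, 126 values in all. Of these, 120 kept their sign and none passed the threshold, with an adjusted p of 0.152 or more. The variance models and the minima on mean FPKM leave a fold change as it was, and rescaling by the median of ratios hardly moved it. In those alternatives the sign could not turn, so only the adjusted p was tried there. The 6 that reversed were Pdk1 (-0.0503), Pdk2 (-0.253), Pdha1 (-0.0545), Pdhb (-0.149) and Dlat (-0.00994) rescaled to TPM, which moves all genes together, and Pdk2 without skmNrip1-/- replicate 1 (-0.0228). Leaving out 1 library each moved Pdk2 between -0.02 and 0.11. The count of members called stayed at 0 in each alternative run. Members at an unadjusted p of 0.05 or less and higher (an alternative count chosen after seeing the data) numbered 4, none when rescaled to TPM (0), and between 1 and 6 without 1 library each. Members that did not overlap and were higher, also counted after seeing the data, numbered 7, and 1 in TPM.

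Over all genes, 45 were called higher and 10 lower. The counts were 30 and 63 in TPM, 22 and 3 without the trend, 14 and 3 when the adjusted p had to be 0.01 at most, and between 6 and 55 higher and between 3 and 16 lower without 1 library each (8 and 6 higher without skmNrip1-/- replicates 1 and 2, 27 and 19 without WT control replicates 1 and 3). With the replicate number as a block they were 18 and 4, and Pdk4 had a log2 fold change of 1.12 (limma adjusted p = 0.429). WT control replicate 3 is alone in its block, so this fit gave the same fold changes as leaving that library out. The block ended the calls of Nrip1, Ldhb and Hadhb (adjusted p of 0.128, 0.228 and 0.235), as did leaving the trend out (0.0769, 0.0943 and 0.0943). Ucp2 ranged from -0.667 to 0.0951 without 1 library each, reversing without skmNrip1-/- replicate 2. The groups share only 2 replicate numbers, and a shared number does not stand for a shared animal. For a shared number, the deviations of the libraries from their group means correlated at 0.0647 and 0.0952. In the group with 2 libraries the deviations are mirror images, which forces the opposite values, -0.0647 and -0.0952, for the crossed numbers. These correlations therefore cannot tell whether the numbers pair the libraries.

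Of the within-library ratios, the difference in kinases to phosphatases ranged from -1.04 to 0.172 without 1 library each, reversing without skmNrip1-/- replicate 1, and that in Dlat to Pdhx from -0.378 to -0.00212. The cause of these shifts was not tested. Pdk3, at about 23.9 to 50.2 fragments per library, was tested only in the fit without a minimum on mean FPKM.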
